A study of Mus musculus with 2 samples.

Results

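Mir103-1, Mir103-2 and Mir107 are 3 mouse microRNA genes that lie inside introns of the pantothenate kinase genes Pank3, Pank2 and Pank1. They were chosen by name and host gene, and they make up 3 of the 2202 microRNA genes of the GENCODE M21 annotation that the deposited tables list. The data were whole-number read counts per microRNA gene from 2 libraries of mouse hippocampus, the brain region of memory formation. Both libraries belong to a single control group of wild-type female animals of strain B6NCrl, and their age is not given. The labels describe the tissue as a layer of the hippocampus without naming the layer, and number the libraries as biological replicates 2 and 1. The libraries share a donor record and no label says that they came from separate animals, so the spread between them may be technical. Small RNA (below 30 nt) was sequenced per the labels, and a different adapter-trimming document is given for each library. The design holds no second condition, and the genes were therefore compared with each other, with related genes and between the 2 libraries.

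Pantothenate kinases phosphorylate vitamin B5, which is the first and rate-limiting step of coenzyme A synthesis. A microRNA in an intron is cut from the host transcript as a hairpin, and Dicer releases a 5p and a 3p arm from it. One arm is loaded into the silencing complex and pairs with target mRNAs through its seed, bases 2 to 8. The 3p arms of this family are the better known products. In mice they are known as regulators of insulin sensitivity in liver and fat, in human cells they target Dicer mRNA, and human miR-107 is known for targeting the mRNA of the amyloid-cleaving enzyme BACE1.

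The hairpins are printed because the counts of these genes turn on a few bases. The sequences are RefSeq's for GRCm38.p6, the assembly also called mm10, 5′ to 3′, with both mature arms in capitals. All 3 genes matched by symbol, and each hairpin was identical to the GENCODE M21 transcript at the same coordinates.
Mir103-1: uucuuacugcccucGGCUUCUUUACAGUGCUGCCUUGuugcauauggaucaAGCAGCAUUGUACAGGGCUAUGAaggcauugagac
Mir103-2: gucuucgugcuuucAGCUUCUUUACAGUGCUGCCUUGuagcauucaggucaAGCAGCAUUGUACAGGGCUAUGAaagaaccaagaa
Mir107: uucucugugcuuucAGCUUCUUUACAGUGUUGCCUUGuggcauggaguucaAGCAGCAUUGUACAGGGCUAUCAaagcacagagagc

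The mature arms are shown with the seed in capitals, because the genes share both seeds and differ elsewhere.
miR-103-3p: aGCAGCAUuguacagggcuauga
miR-107-3p: aGCAGCAUuguacagggcuauca
miR-103-1-5p: gGCUUCUUuacagugcugccuug
miR-103-2-5p: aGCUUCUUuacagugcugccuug
miR-107-5p: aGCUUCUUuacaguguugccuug

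Mir103-1 and Mir103-2 encode the same 3p arm of 23 bases. The 3p arm of Mir107 differs from it at 1 position, G22C, counted from 1 at the 5′ end of the arm with the miR-103 base first. Among the 5p arms, Mir103-1 and Mir103-2 differ by G1A, Mir103-2 and Mir107 by C16U, and Mir103-1 and Mir107 by both. Of 1679 mature names in the RefSeq table, 2 carry the 3p seed GCAGCAU and 3 carry the 5p seed GCUUCUU, and all of them come from these 3 genes.

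The genes lie on different chromosomes and in the same place of their hosts. Mir103-1 is on the plus strand of chromosome 11 (mm10, 35782396 to 35782481), in intron 5 of Pank3, which is 1740 bases long. Mir103-2 is on the plus strand of chromosome 2 (131288052 to 131288137), in intron 5 of Pank2, which is 5801 bases long. Mir107 is on the minus strand of chromosome 19 (34820687 to 34820773), in intron 5 of Pank1, which is 7282 bases long. Each host transcript has 7 exons, each hairpin is on the strand of its host, and the hairpins start 688, 454 and 326 bases after exon 5 of Pank3, Pank2 and Pank1. The map of the host transcripts shows this shared position. No host transcript was measured in these libraries.

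**Figure D1:**
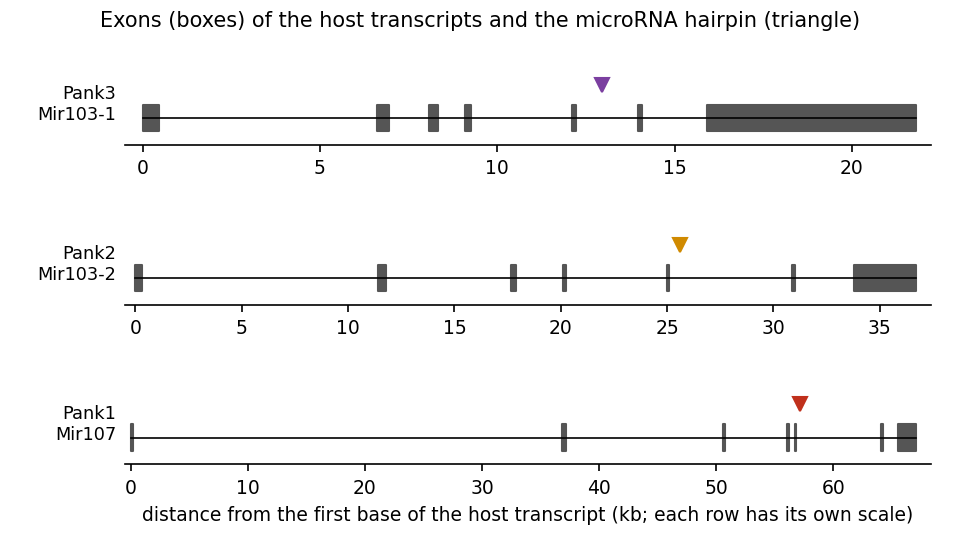
Exons (boxes) of the host transcripts of Pank3, Pank2 and Pank1 from 5′ to 3′, with the hairpin of each microRNA gene as a triangle. The horizontal axis is the distance from the first base of the transcript in kb, on a scale of its own in each row. In each of the 3 hosts the hairpin lies between exon 5 and exon 6 of 7.

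The total depth was 14300757 reads in replicate 2 and 15794475 in replicate 1, of which 5901107 and 6713867 were counted on the sense strand of a microRNA gene. Reads with several mapping places were assigned to no gene and made up 45.9% of replicate 2 and 43.9% of replicate 1. Levels below are CPM, the sense counts of a gene scaled so that the microRNA genes of a library sum to 1000000. The 11 neuronal genes summed to 27842 CPM in replicate 2 and 26787 CPM in replicate 1, which included 6 and 15 counts over the copies of Mir124a, a defining neuronal microRNA whose copies share 32 bases. Of the 4 muscle genes Mir1a-1, Mir1a-2 and Mir133a-1 had 0 counts in both libraries. Mir1a-1 and Mir1a-2 each share 28 bases with another hairpin and Mir133a-1 shares 31. Reads from these stretches could go unassigned, so the 0 counts do not show that their microRNAs were absent. Mir206 had 19.3 and 32.6 CPM in replicates 2 and 1. The liver gene Mir122 had 42.0 and 55.1 CPM in replicates 2 and 1.

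How much of each hairpin can be told from other hairpins was read from the sequences. A stretch counted as unique if it occurred on neither strand of any other annotated microRNA hairpin. The rest of the genome was not searched for copies. The longest stretch that Mir103-1 and Mir103-2 share is 27 bases, and Mir107 shares 24 bases with each of them. These stretches start at base 49 of the hairpin, just before the 3p arm. A read that begins at the first base of the 3p arm is therefore unique to Mir107 only when it is at least 22 bases long, since that is where the G22C difference lies. For Mir103-1 and for Mir103-2 the same read must be at least 25 bases long, which is 2 bases past the end of the arm.

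Within the 23 bases of the 3p arm there are 21 windows of 18 to 23 bases. Of these, 11 are unique in Mir107, and 0 in Mir103-1 and 0 in Mir103-2. In the 5p arm all 21 windows are unique in Mir107, against 6 in Mir103-1 and 6 in Mir103-2. Over the whole hairpin 92.4% of the windows of 22 bases are unique in Mir107, 87.7% in Mir103-1 and 84.6% in Mir103-2. A read of 18 to 23 bases identical to part of the 3p arm is thus never unique to Mir103-1 or Mir103-2, and is unique to Mir107 only when it reaches base 22. How many reads were left out for this reason is not given by the counts.

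**Figure D2:**
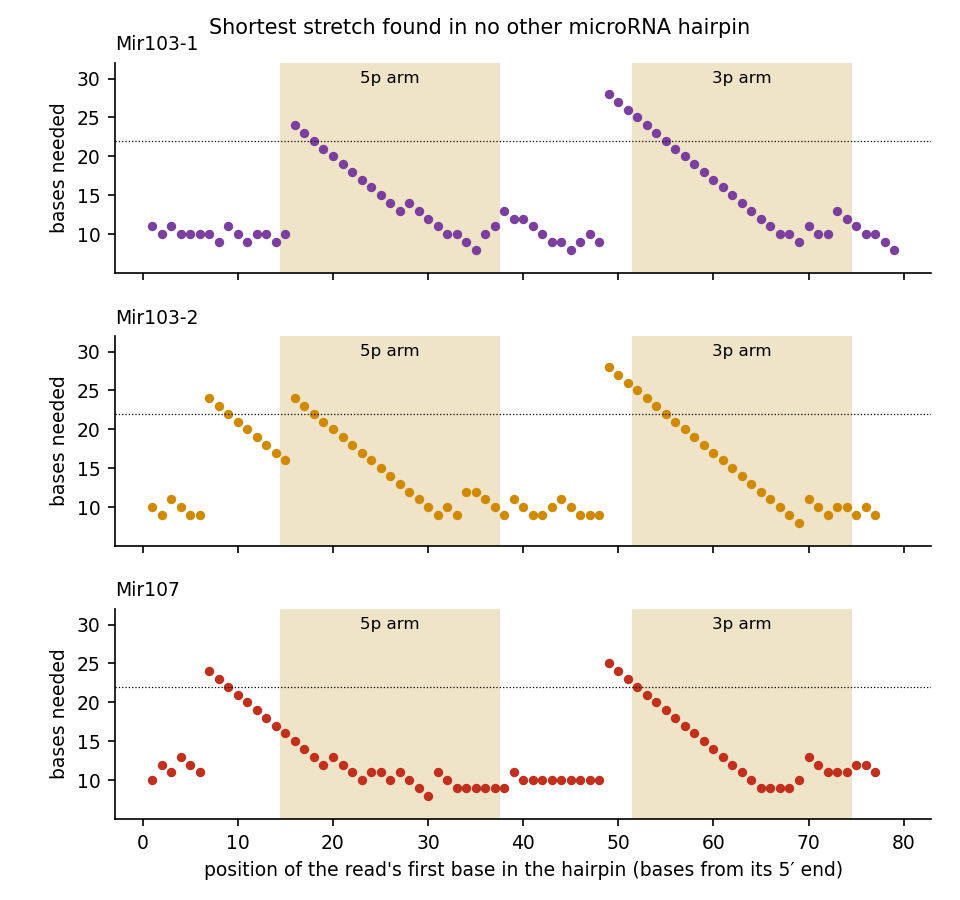
Shortest stretch that occurs in no other annotated microRNA hairpin (vertical axis, bases) for each position of a read's first base (horizontal axis, bases from the 5′ end of the hairpin). Shading marks the mature arms and the dotted line marks 22 bases. At the start of the 3p arm, 25 bases are needed in Mir103-1 and Mir103-2 and 22 in Mir107.

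Mir107 held nearly all counts that were assigned to the family. Mir107 had 5932 counts in replicate 2 (exact 95% Poisson interval 5782 to 6085) and 34549 counts in replicate 1 (34186 to 34915). Its levels were 1005 and 5146 CPM in replicates 2 and 1, with a mean of 3076 ± 2928 CPM (SD, n = 2). By mean level it ranked 43 among all 2202 microRNA genes, with rank 83 in replicate 2 and rank 35 in replicate 1. The gene is thus among the abundant microRNA genes of both libraries, while its level differs several-fold between them. Each interval was computed from 1 count in 1 library and covers counting error only. The counts carry no molecular identifiers, so the intervals are for reads and not for molecules.

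Mir103-2 was counted far less often. It had 70 counts in replicate 2 (interval 54.6 to 88.4) and 240 counts in replicate 1 (interval 211 to 272). These correspond to 11.9 and 35.7 CPM, with a mean of 23.8 ± 16.9 CPM (SD, n = 2) and rank 260. Its intervals in the 2 libraries do not overlap.

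Mir103-1 was close to the limit of detection. It had 5 counts in replicate 2 (interval 1.62 to 11.7) and 25 counts in replicate 1 (interval 16.2 to 36.9), which is 0.847 and 3.72 CPM. Its mean was 2.29 ± 2.03 CPM (SD, n = 2) and its rank 435. The floor for a count of 0 was set at 3 counts, which is 0.508 CPM in replicate 2 and 0.447 CPM in replicate 1. It is not the upper end of an exact interval like those above. None of the 3 genes had an antisense count in either library, and the counts without strand were the same as the sense counts.

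**Figure D3:**
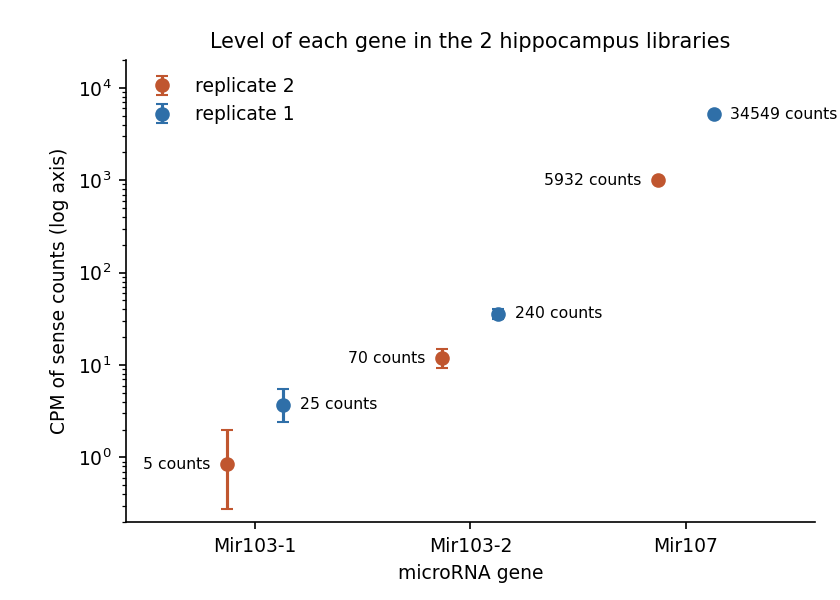
Level of each gene (CPM of sense counts, log axis) in replicate 2 (left point) and replicate 1 (right point), with exact 95% Poisson intervals for counting error and the count beside each point. In both libraries the order is Mir107, Mir103-2, Mir103-1, and each gene is lower in replicate 2.

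The order of the 3 genes was the same in both libraries. The hairpins are 86 bases long for Mir103-1 and Mir103-2 and 87 for Mir107. Per 100 bases of hairpin the levels in replicate 2 were 1155 CPM for Mir107, 13.8 for Mir103-2 and 0.985 for Mir103-1. In replicate 1 they were 5915 CPM for Mir107, 41.6 for Mir103-2 and 4.33 for Mir103-1. The intervals of neighbouring genes in this order do not overlap within a library. This is an order of assigned reads, and since windows of the 3p arm are unique in Mir107 and in neither of the others, it does not rank the production of miR-103 and miR-107 in the tissue.

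Mir107 made up 98.8% of the family's 6007 counts in replicate 2 (exact Clopper-Pearson 95% interval 98.44 to 99.02) and 99.2% of its 34814 counts in replicate 1 (99.14 to 99.33). The share of Mir103-2 was 1.17% in replicate 2 (0.91 to 1.47) and 0.689% in replicate 1 (0.61 to 0.78). Mir103-1 held 0.0832% in replicate 2 (0.03 to 0.19) and 0.0718% in replicate 1 (0.05 to 0.11). The ratio of Mir107 to Mir103-2 counts was 84.7 in replicate 2 (interval 67.0 to 109) and 144 in replicate 1 (127 to 164), so their proportion differed between the libraries by more than counting error. The ratio of Mir103-2 to Mir103-1 was 14 in replicate 2 (5.72 to 44.5) and 9.60 in replicate 1 (6.35 to 15.1), and these intervals overlap.

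All 3 genes were lower in replicate 2. They were compared between the libraries with a 2-sided Fisher exact test of each gene's counts against all other counts, and p-values were adjusted by the Benjamini-Hochberg method over the 466 genes with at least 10 counts on average. All 3 genes were among those tested. A gene was called lower or higher when its adjusted p was at most 0.05 and its ratio had the same sign under 3 scalings. Of the 466 genes, 53.6% were called in either direction, 35.6% were called lower in replicate 2, 18% (84 genes) were called higher, and 6.87% were lower by at least 2-fold, as were all 3 family members. The test compares 2 libraries, not conditions, and covers counting error only.

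Mir107 was 5.12-fold lower in replicate 2 than in replicate 1 by CPM (exact 95% interval 4.98 to 5.26), with a log2 ratio of -2.19 (counting SE 0.02) after trimmed mean of M values (TMM) scaling. Its p-value was too small for the software to represent. This fold is one of uniquely assigned reads, which for the 3p arm are those that reach base 22. The share of reads that reach it in each library is not given by the counts, and the part of the differing trimming documents in the fold was not tested. Mir103-2 was 3.01-fold lower (2.30 to 3.99), with a log2 ratio of -1.42 (SE 0.20, Fisher exact test, Benjamini-Hochberg adjusted p = 6.47e-18). Mir103-1 was 4.39-fold lower (1.65 to 14.7), with a log2 ratio of -1.87 (SE 0.68, adjusted p = 0.00162 by the same exact test). The fold of Mir107 lies outside the interval of Mir103-2 and inside that of Mir103-1.

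Few genes differed as far in this direction. Of the 466 tested genes, 8 had a lower log2 ratio than Mir107, 9 a lower one than Mir103-1 and 18 a lower one than Mir103-2. Over all tested genes the median log2 ratio was -0.18 under totals, -0.02 under TMM and -0.03 with the size factors of DESeq2. Under totals 65.5% of the tested genes had a log2 ratio at or below 0, and under TMM 50.6%. The exact test uses totals, so the shares of genes called lower and higher rest in part on that scaling. Mir107 stood at -2.20 under DESeq2 size factors and -2.36 under totals, and its direction and that of the other 2 members held under each of these scalings. Among the 43 genes with a mean CPM at or above that of Mir107, its log2 ratio was the lowest. Mir219a-2 followed at -1.46, and the highest ratio was that of Mir128-1 at 1.40. The median of the 43 genes was -0.06.

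**Figure D4:**
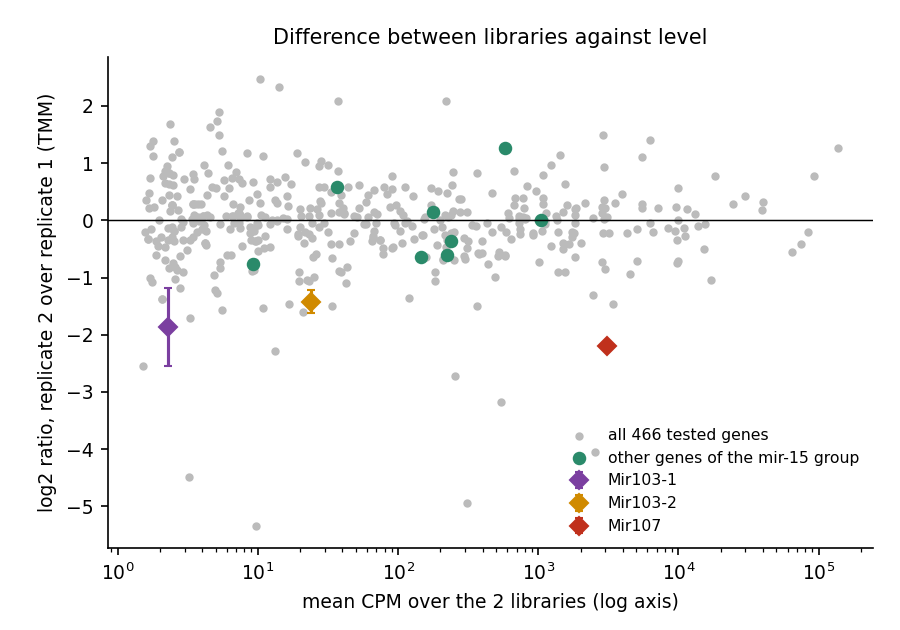
Log2 ratio of replicate 2 over replicate 1 under TMM (vertical axis) against mean CPM over the 2 libraries (horizontal log axis) for the 466 tested genes. Diamonds are Mir103-1, Mir103-2 and Mir107 with counting SE, and green points the tested genes of the mir-15 group. The 3 diamonds lie at -1.87, -1.42 and -2.19, below the green points, which run from -0.77 to 1.26.

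Markers of cell types also differed between the libraries. Over all 466 tested genes, 35.6% were called lower in replicate 2 and 18% higher. The oligodendrocyte genes, 2 of 3 lower and 1 not passing, summed to 3193 CPM in replicate 2 and 7078 CPM in replicate 1. Mir219a-2 alone had 1671 and 5126 CPM of these. The endothelial gene Mir126a, 1 of 1 lower, had 2897 CPM in replicate 2 and 6191 CPM in replicate 1. Of the erythrocyte genes 2 of 2 were lower, with 31.7 CPM in replicate 2 and 72.2 CPM in replicate 1. Mir206, the 1 muscle gene tested, and Mir122 were also lower. The neuronal genes, 3 lower and 4 higher of 7 tested, summed to slightly more in replicate 2 and did not move together. Mir128-1, a higher one, had 8772 CPM in replicate 2 and 3723 CPM in replicate 1. Mir132, a lower one and the most abundant of the list, had 12540 and 15073 CPM. The astrocyte genes, 1 lower and 2 higher of 3, summed to 55777 CPM in replicate 2 and 48378 CPM in replicate 1. Leukocyte genes, 3 lower and 1 higher of 4, summed to 1857 CPM in replicate 2 and 1367 CPM in replicate 1. Mir150, the higher one, had 1815 and 1303 CPM of these. Choroid plexus genes, 1 lower and 1 higher of 2, summed to 1667 and 1565 CPM in replicates 2 and 1. Mir204, the higher one, had 1653 and 1532 CPM of these. The part of the cell mixture in the difference of Mir107 was not tested. The trimming document and the biosample change together with the library, and these cannot be told apart. In bulk tissue, fewer cells of a type and less RNA per cell cannot be told apart either.

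The genes nearest in level were named by the distance of log2(CPM + 1) over the 2 libraries. Those nearest to Mir107 were Mir34a (distance 0.64), with 1306 CPM in replicate 2 and 3586 CPM in replicate 1, then Mir219a-2 (0.73) and Mir22 (1.04). Those nearest to Mir103-2 were Mir449a (0.25), with 13.9 and 32.6 CPM in replicates 2 and 1, Mir1968 (0.25) and Mir214 (0.32). Nearest to Mir103-1 were Mir106a and Mir223 (both at 0.23), each with 6 counts in replicate 2 and 21 in replicate 1, and Mir6918 (0.44). The 3 genes nearest to Mir107 had log2 ratios of -1.30, -1.46 and -0.85, beside -2.19 for Mir107. The distance uses the same 2 levels as the ratio, so it favours genes of similar ratio and gives no separate comparison.

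The family belongs to a wider group of microRNAs that carry AGCAGC near the 5′ end, the mir-15 group, whose members are known as brakes on the cell cycle. In miR-103-3p and miR-107-3p the motif starts at base 1, and in the others shown here at base 2, so that the seeds are offset by 1 base. The 5p arms of the related genes are printed to show this offset, with bases 2 to 8 in capitals.
miR-497a-5p: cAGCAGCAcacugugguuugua
miR-195a-5p: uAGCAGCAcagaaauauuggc
miR-15b-5p: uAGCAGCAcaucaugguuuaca
miR-15a-5p: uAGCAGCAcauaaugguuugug
miR-16-5p: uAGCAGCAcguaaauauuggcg
miR-322-5p: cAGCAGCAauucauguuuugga
miR-503-5p: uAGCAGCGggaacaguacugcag

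Of the 1679 mature names in RefSeq, 15 (0.893%) hold AGCAGC within their first 9 bases. The list of related genes held 11 names, of which 10 were annotated in GENCODE M21, Mir497a being present there as Mir497. Mir497b, which lies opposite Mir497, is in the list by name although its mature sequence in RefSeq lacks the motif, and it had 2 counts in replicate 2 and 4 in replicate 1.

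By CPM over library totals, the summed level of the related genes was nearly the same in the 2 libraries, while that of the Pank family was not. The 3 Pank microRNA genes summed to 1018 CPM in replicate 2 and 5185 CPM in replicate 1, with a mean of 3102 ± 2947 CPM (SD, n = 2). The 10 related genes summed to 2467 CPM in replicate 2 and 2432 CPM in replicate 1, with a mean of 2449 ± 24.9 CPM (SD, n = 2). Single genes within this sum moved in both directions, as given below, so the small SD describes the sum only. It also holds for CPM over totals only. The TMM factors, 0.946 in replicate 2 and 1.06 in replicate 1, would raise the sum in replicate 2 and lower it in replicate 1. The Pank family therefore made up 29.2% of the CPM of both sets together in replicate 2 and 68.1% in replicate 1. These are shares of uniquely assigned reads, and Mir107 held 98.8% of the family's counts in replicate 2 and 99.2% in replicate 1. Reads within its 3p arm are unique only when they reach base 22. Reads of the 3p arm shared by Mir103-1 and Mir103-2, and of the arm shared by Mir16-1 and Mir16-2, could go unassigned. The shares thus do not compare production of the sets in the tissue. Whether the sets differ in their change was not tested.

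Of the 8 related genes with enough counts to be tested, 4 were lower in replicate 2, 2 were higher, 1 did not pass and 1 depended on the scaling. Over all 466 tested genes, 35.6% were lower and 18% higher. Their median log2 ratio was -0.17 under TMM, beside -0.02 for all tested genes. Mir497, the most abundant of them, had 986 CPM in replicate 2 and 1093 CPM in replicate 1. The sign of its ratio depended on the scaling. Its neighbour Mir195a, from the same cluster on chromosome 11, had 791 CPM in replicate 2 and 370 CPM in replicate 1. It was higher, with a log2 ratio of 1.26 (SE 0.04, Fisher exact test adjusted p = 4.23e-216).

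Mir15a and Mir16-1 are a pair on chromosome 14 known as tumour suppressors. Mir15a had 164 CPM in replicate 2 and 280 CPM in replicate 1. It was lower, with a log2 ratio of -0.61 (SE 0.06, exact test adjusted p = 1.21e-42). Mir16-1 had 175 CPM in replicate 2 and 178 CPM in replicate 1, which did not pass (adjusted p = 0.765 by the exact test). In the pair on chromosome 3, Mir15b was lower at -0.36 (197 CPM in replicate 2 and 282 CPM in replicate 1), whereas Mir16-2 was higher at 0.59 (42.2 CPM in replicate 2 and 31.4 CPM in replicate 1). Mir16-1 and Mir16-2 share 23 bases, the whole of miR-16-5p, so no read identical to part of that arm is unique to either, as with miR-103-3p in Mir103-1 and Mir103-2. The X-linked pair was lower in both members, Mir322 at -0.65 (105 CPM in replicate 2 and 185 CPM in replicate 1), as well as Mir503 at -0.77 (6.27 CPM in replicate 2 and 12.1 CPM in replicate 1). Mir195b had 1 count in replicate 2 and 0 in replicate 1.

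**Figure D5:**
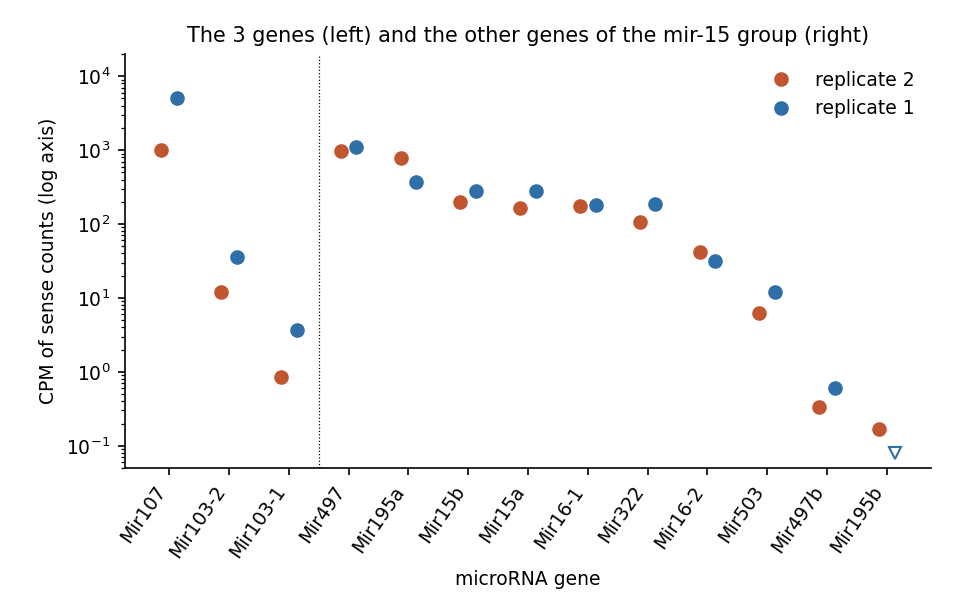
Level (CPM of sense counts, log axis) of the 3 Pank microRNA genes, left of the dotted line, and of 10 related genes of the mir-15 group, right of it, in replicate 2 (left point) and replicate 1 (right point). The open triangle at the bottom marks a gene with 0 counts. Mir107 has the highest point in each library, at 1005 CPM in replicate 2 and 5146 CPM in replicate 1.

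Other microRNA genes in introns of paired host genes were set beside the Pank family, with the stretch each shares with another hairpin. Mir26a-1 and Mir26a-2, in Ctdspl and Ctdsp2, share 25 bases and had 17.3 and 34.6 CPM in replicate 2 and 3.43 and 20.0 CPM in replicate 1. Their relative Mir26b, in the related phosphatase gene Ctdsp1, shares at most 12 bases with any other hairpin and had 7195 CPM in replicate 2 and 3766 CPM in replicate 1. Mir128-1 and Mir128-2, in R3hdm1 and Arpp21, share 23 bases and had 8772 and 1882 CPM in replicate 2 and 3723 and 952 CPM in replicate 1. Mir218-1 and Mir218-2, in the axon guidance genes Slit2 and Slit3, share 22 bases and had 53.7 and 215 CPM in replicate 2 and 51.7 and 168 CPM in replicate 1.

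Most of these genes were higher in replicate 2. Of the 12 genes in paired hosts, 10 were tested, 7 were higher and 3 did not pass, beside 84 of 466 over all tested genes, which is 18%. The median log2 ratio of the 10 was 0.74. Mir128-1 was higher at 1.40, Mir26b at 1.10 and Mir204, in the cation channel gene Trpm3, at 0.27. Mir211, in the related channel gene Trpm1, had 3.39 CPM in replicate 2 and 5.21 CPM in replicate 1, which did not pass (adjusted p = 0.203 by the Fisher exact test). The microRNAs of the myosin genes Myh6 and Myh7, which mark heart and slow muscle, had 0 counts for Mir208a in both libraries, and 1 count in replicate 2 and 2 in replicate 1 for Mir208b. Mir499, in the related myosin gene Myh7b, had 3.56 CPM in replicate 2 and 4.47 CPM in replicate 1, which did not pass (adjusted p = 0.593, exact test).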

How the data were processed

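Raw counts of reads per microRNA gene were deposited for each of 2 libraries, on assembly mm10 and annotation GENCODE M21 per the deposited notes. The aligner and counter are not stated in the sources used here. Each table has 3 count columns (without strand, sense and antisense, identified from their totals, since they carry no heading) and 4 read classes. The classes were left out of CPM, which were computed from the sense counts over all 2202 genes. The authors' identifiers all matched GENCODE M21 names.

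Scaling used TMM (edgeR 4.0.16), totals or DESeq2 1.42.0 size factors, with 0.5 counts added before log2. Fisher exact tests (scipy 1.17.1) ran across all genes averaging 10 or more counts, with Benjamini-Hochberg adjustment. The test was tried on simulated Poisson counts. These hold counting error only, so the trial does not show how the test behaves with other spread between libraries. With 1 group, no quasi-likelihood or other test over samples was possible. Intervals are exact at the 95% level. The floor for a count of 0 was set at 3 counts and is not such an interval. The members and lists were chosen with earlier results of these data known. The genes named by rule are the members, the related genes, those in paired hosts, and the nearest in level (3 each) and in position to each member. Single genes of the cell type lists were named after their values were seen. Alternatives covered strand, scaling, denominator, filters, added counts and leaving out a library.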

Additional observations from a re-analysis of the deposited data

How the results depend on the processing

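No alternative reversed a direction or ended a call for Mir103-1, Mir103-2 or Mir107. Of 55 values, 52 stayed within the replicate SD, on their side of the test or within 1.5 times the count. Part of this tally was fixed in advance. With 2 libraries, leaving 1 out always moves a mean by less than the SD. The other scalings and the added count changed the ratio and not the p-value, so they could not change the test result. For Mir103-1 the minimum mean of 50 counts gave no value, since it was then not tested. Leaving out a library gave 0.847 to 3.72 CPM for Mir103-1, 11.9 to 35.7 CPM for Mir103-2, 1005 to 5146 CPM for Mir107, 1018 to 5185 CPM for the 3 together, and 98.8% to 99.2% for the share of Mir107, so each mean level rests on 2 unlike values. With all reads as the denominator Mir107 averaged 1301 CPM, because most reads lie outside the sense counts. The summed level of the related genes moved beyond its replicate SD without strand, to 1505 CPM, since Mir497 lies opposite Mir497b and has no such counts, and to 1026 CPM with all reads as the denominator. The number of genes that differed between the libraries was 250 of 466 tested, and 233 of 441 without strand. It was 246 of 787 with no filter on low counts and 233 of 328 at a mean of 50 or more counts. Among genes that share under 18 bases with another hairpin it was 188 of 371. When a 2-fold difference was also required it was 53 of 466. The share of tested genes that differed thus depended on the filter. No paired analysis was possible because there is only 1 group. The depth limits Mir103-1 most, with 5 and 25 counts in replicates 2 and 1.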

Other observations

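None of the 3 genes has another annotated microRNA gene close by. The nearest to Mir103-1 is Mir218-2 of the axon guidance gene Slit3, on the same strand of chromosome 11 at 35616816 to 35616925, at a gap of 165.5 kb. Mir218-2 was higher in replicate 2, with 215 CPM there and 168 CPM in replicate 1 (log2 ratio 0.52, SE 0.06, Fisher exact test with Benjamini-Hochberg adjusted p = 3.35e-09), whereas Mir103-1 was lower. The nearest to Mir103-2 is Mir6973b, at 247.7 kb, with 3 counts in replicate 2 and 7 in replicate 1, too few to be tested. The nearest to Mir107 is Gm27476, at 70.1 kb, with 0 counts in both libraries.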
